A study of Homo sapiens with 16 samples.

Results

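The genes described here are the 3 members of the MYT1 family (MYT1, MYT1L and ST18) and 3 genes of the REST complex (REST, RCOR1 and RCOR2), 6 of the 19974 protein-coding genes in the annotation. They were chosen by name, with earlier results of these data known. For each library, the peaks and the bases under peaks were taken over the gene body and 20 kb on either side, here called the locus. The 6 loci were all among the 18755 loci with enough covered bases to be tested.

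ATAC-seq, an assay that marks open chromatin by where the enzyme Tn5 can insert adapters, was run on nuclei of cells sorted from brain organoids rich in dorsal telencephalon. The organoids were grown from one H9 human embryonic stem cell line, labelled WT, that carried both reporters in all groups: P2A-EGFP in place of the stop codon on one SOX2 allele, and a dTomato gene in AAVS1, a site used for safe insertion, under the promoter of the neuronal gene Synapsin1 (hSYN1). Progenitors (SOX2::EGFP+) and neurons (hSyn1::dTomato+) were taken at days 40, 60, 90 and 120, with 2 libraries for each population and day, 16 in all. A neuron is thus any cell with an active Synapsin1 promoter, and a progenitor any cell with SOX2, of whatever regional type.

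MYT1, MYT1L and ST18 encode zinc finger proteins of the nervous system. MYT1L is best known as a neuronal factor that represses genes of other lineages, and is one of the factors used to turn fibroblasts into neurons; MYT1 acts in differentiating neural cells. REST is a repressor that binds the RE1 element near many neuronal genes and keeps them off outside neurons and in neural progenitors. RCOR1 (CoREST) and its relative RCOR2 are scaffolds that tie the demethylase KDM1A and histone deacetylases to REST and other factors.

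The lists held 67977 to 138432 peaks on the main chromosomes per library and covered 36.9 to 104 Mb, with the shortest total in the second day 120 progenitor library and 54.8 Mb in the second day 60 neuron library. Covered bases were therefore scaled to each library's own total before testing. Read depth is unknown, since the files hold peaks and not reads. The sum over 8 progenitor markers was 36.0 to 86.2 kb in progenitor libraries and 31.6 to 56.2 kb in neuron libraries, and the sum over 8 neuron markers was 43.1 to 128 kb and 63.1 to 172 kb. All 16 of these markers had covered bases in every library, and the unscaled ranges of both lists overlapped between the populations. After scaling, 5 of 8 progenitor markers were higher in progenitors by limma and 3 of 8 neuron markers in neurons. NEFL, 1 of these 3, kept its call in 9 of 30 alternative settings. Within 2 kb of gene starts, 1 of 8 progenitor markers and 1 of 8 neuron markers passed, against 6.53% of gene starts. In each list 0 passed in the other direction, and 21.0% of all loci passed in either direction. SOX2, whose reporter defines the progenitor sort, and HES1 were among the 5. Both had the opposite sign over their gene bodies alone (-0.77 and -0.54). DLX1 and DLX2, 2 of 8 GABAergic neuron markers and a count near that share, were higher in progenitors, though not over their gene bodies alone. GABAergic neuron markers, 8 genes, summed to 30.7 to 62.9 kb in progenitors and 27.4 to 73.5 kb in neurons. Oligodendrocyte lineage markers summed to 15.2 to 34.0 kb and 17.6 to 48.5 kb, mesenchyme markers to 6.45 to 27.4 kb and 11.1 to 30.0 kb, and microglia markers to 4.51 to 14.4 kb and 6.13 to 22.2 kb. Of 8 mesenchyme markers, 2 were higher in progenitors by limma (PDGFRB and TWIST1) and 2 in neurons (COL3A1 and DCN). Of 7 microglia markers tested, 1 was higher in progenitors (P2RY12) and 1 in neurons (C1QA). Of 8 oligodendrocyte lineage markers 0 passed. MAG, COL3A1, LUM, C1QA and TREM2 had no covered bases in some libraries. The part of these other cell types in the results below was not tested. In sorted bulk samples, fewer cells with an open site and less opening per cell cannot be told apart.

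The gene starts differed in sequence between the 2 sets of genes. They are shown here because the number of bases under peaks within 2 kb of the MYT1 and MYT1L starts had ranges that did not overlap between the populations. The sequences are RefSeq's (GRCh38.p14), 250 bases before to 50 after the start, read 5′ to 3′ on the gene's strand, with CG pairs in capitals. RefSeq entries were found for 4 of the 6 genes: MYT1L, MYT1, REST and RCOR1. MYT1L start 1 lies at chr2:2331226-2331525 and start 2 at chr2:2326262-2326561, both on the minus strand. MYT1 lies at chr20:64164202-64164501, REST start 1 at chr4:56907650-56907949 and RCOR1 at chr14:102592399-102592698, all on the plus strand.
MYT1L start 1: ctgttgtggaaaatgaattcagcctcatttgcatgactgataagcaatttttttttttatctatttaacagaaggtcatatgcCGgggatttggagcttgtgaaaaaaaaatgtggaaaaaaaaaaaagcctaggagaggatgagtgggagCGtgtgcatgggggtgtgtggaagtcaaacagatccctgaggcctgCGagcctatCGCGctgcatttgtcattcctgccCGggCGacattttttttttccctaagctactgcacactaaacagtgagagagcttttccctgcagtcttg
MYT1L start 2: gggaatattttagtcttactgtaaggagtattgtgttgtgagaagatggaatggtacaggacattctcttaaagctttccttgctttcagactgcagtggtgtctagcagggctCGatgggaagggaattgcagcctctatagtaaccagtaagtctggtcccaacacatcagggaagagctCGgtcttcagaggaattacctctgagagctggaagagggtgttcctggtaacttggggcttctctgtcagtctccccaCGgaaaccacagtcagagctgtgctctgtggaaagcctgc
MYT1 start: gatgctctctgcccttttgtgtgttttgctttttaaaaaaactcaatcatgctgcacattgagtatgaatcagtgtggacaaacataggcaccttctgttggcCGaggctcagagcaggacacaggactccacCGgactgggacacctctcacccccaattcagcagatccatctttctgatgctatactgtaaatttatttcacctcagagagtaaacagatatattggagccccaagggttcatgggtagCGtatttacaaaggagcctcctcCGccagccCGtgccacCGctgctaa
REST start 1: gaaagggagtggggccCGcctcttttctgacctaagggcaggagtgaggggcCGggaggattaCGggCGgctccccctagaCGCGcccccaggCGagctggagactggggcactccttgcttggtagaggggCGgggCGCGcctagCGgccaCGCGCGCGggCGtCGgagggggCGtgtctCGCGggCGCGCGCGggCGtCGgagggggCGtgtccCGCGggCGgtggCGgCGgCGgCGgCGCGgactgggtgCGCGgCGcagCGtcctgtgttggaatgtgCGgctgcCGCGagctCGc
RCOR1 start: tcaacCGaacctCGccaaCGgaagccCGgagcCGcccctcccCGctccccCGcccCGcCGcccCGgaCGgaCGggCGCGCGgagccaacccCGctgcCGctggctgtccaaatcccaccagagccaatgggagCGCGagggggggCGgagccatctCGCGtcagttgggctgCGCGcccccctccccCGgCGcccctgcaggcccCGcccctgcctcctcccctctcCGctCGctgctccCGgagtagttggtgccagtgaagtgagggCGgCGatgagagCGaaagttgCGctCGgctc
The MYT1L and MYT1 starts held few CG pairs: 7 and 3 at MYT1L starts 1 and 2, and 6 at MYT1, with 44%, 49% and 48% G or C. REST start 1 held 44 CG pairs and 76% G or C, and RCOR1 held 35 and 74.3%. Over all 34961 promoter windows the medians were 14 CG pairs and 58.7%, so the 3 neural zinc finger starts lay below the median and the 2 repressor complex starts above it. The letters AAAGTTT, a MYT1 family motif, searched on both strands, were in none of the members' windows and in 4.29% of all windows. The shorter AAGTTT, which lies inside AAAGTTT, was in REST start 2 alone among them, against 12.8% of all windows. Of the 2 parts of the RE1 element, CAGCACC was in none (7.75% of all windows) and GGACAG was in REST start 2 and RCOR1 (20.6%).

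MYT1 (gene ID 4661, chr20:64164452-64242253, plus strand) had a wider peak at its start in neurons than in progenitors. Within 2 kb of the start, the bases under peaks were 638 to 830 in the 8 progenitor libraries (median 725.5) and 961 to 2952 in the 8 neuron libraries (median 2253.5). All neuron libraries lay above all progenitor libraries, with the second day 60 neuron library the lowest neuron value. The scaled log2 difference, progenitors minus neurons, was -1.41 ± 0.19 (SE; limma adjusted p = 0.000535 over 16136 gene starts). With MYT1L, 2 of the 6 members passed this test, against a background of 6.53% of gene starts, and these 2 were also the members whose ranges did not overlap, against 0.682% of gene starts. When all peak lists were trimmed to the same total length, the MYT1 difference was -0.60 (adjusted p = 0.678). At single days 0 of 6 members passed at the gene start, against 1.12%, 1.39%, 0.483% and 2.70% of starts from day 40 to day 120. Late minus early gave 0 of 6 as well, against 0.688% in progenitors, 0.576% in neurons and 0.0558% for their difference, and day 120 minus day 40 gave 0 against 0.316%.

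Over the whole merged start region, the MYT1 ranges overlapped, with 2462 to 3227 bases in progenitors (median 2931.5) and 961 to 4445 in neurons (median 3563). The separation thus holds for the 2 kb window and not for the region. The MYT1 start peak was 600 to 830 bases wide in progenitors (median 675.5) and 961 to 4445 in neurons (median 2857.5). It reached 235 to 356 bases upstream of the start in progenitors and 400 to 3493 in neurons, while downstream it reached 320 to 521 and 560 to 951 bases. Every progenitor library had a second, separate peak of 1781 to 2627 bases upstream, whose outer edge lay 4107 to 4403 bases from the start. In 4 neuron libraries, spread over all 4 days, 1 peak ran from the start into the inner part of that stretch, to between 3076 and 3493 bases upstream, and did not reach its outer edge. The first day 40 and first day 90 neuron libraries had a separate upstream peak, of 358 and 1469 bases, and the second day 60 and second day 120 neuron libraries had only the start peak.

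**Figure D1:**
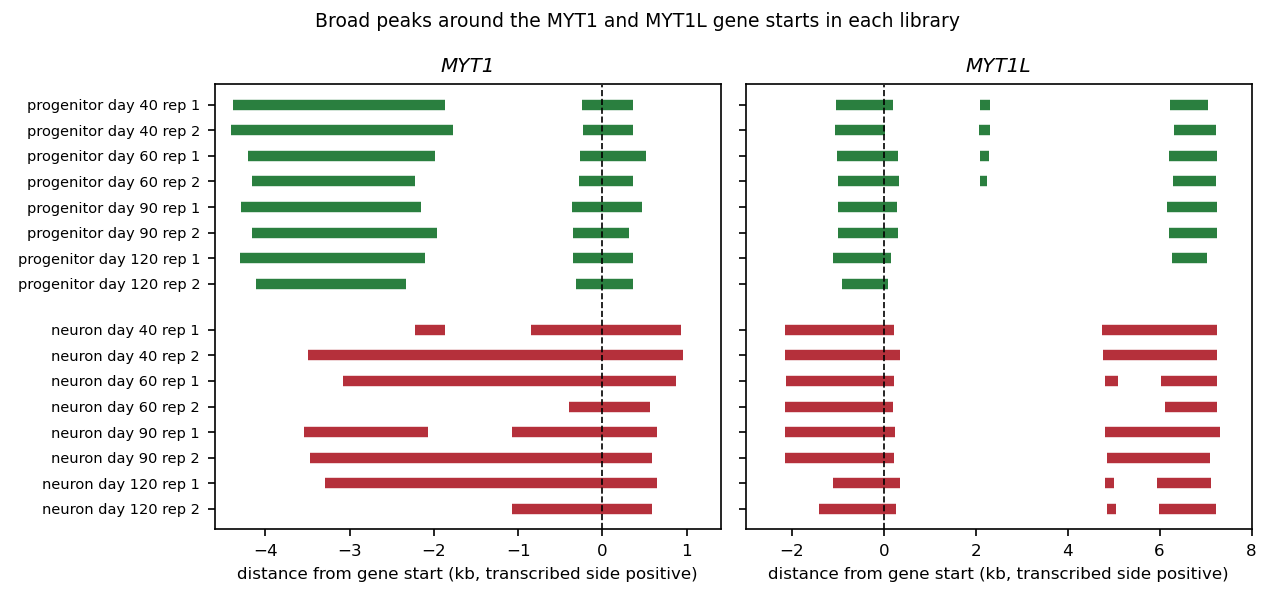
Broad peaks around the MYT1 (left) and MYT1L (right) gene starts, 1 line of bars per library, in green for progenitors and red for neurons; the horizontal axis is the distance from the gene start in kb and the dashed line marks the start. MYT1 start peaks are 600 to 830 bases wide in progenitors and 961 to 4445 in neurons, and MYT1L start peaks 1002 to 1322 and 1471 to 2505.

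MYT1L (gene ID 23040, chr2:1789113-2331275, minus strand) differed between the populations in the whole locus, in peak number and at its first start, each time with more in neurons. It covered 9.11 to 31.9 kb in progenitor libraries (median 21.3) and 17.1 to 42.3 kb in neuron libraries (median 31.2), so the unscaled ranges overlapped, as they did for all 6 members (0.491% of loci had ranges that did not overlap). The scaled log2 difference was -0.56 ± 0.08 (SE; limma adjusted p = 1.96e-05). It was the 1 member of 6 that passed, against 21.0% of all 18755 loci (3945 in all, 1856 higher in progenitors and 2089 in neurons). An exact permutation test of the 16 libraries (two-sided) gave p = 0.000622, 0.0168 after adjustment over all loci. Without scaling, the difference was -0.51 and did not pass (limma adjusted p = 0.140).

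By day, the gap was widest at day 40. The day 40 progenitor libraries covered 15.9 and 17.1 kb of the MYT1L locus and the day 40 neuron libraries 40.8 and 41.3 kb. At day 60 the progenitor values were 31.9 and 24.0 kb and the neuron values 42.3 and 20.3 kb, and at day 90 they were 28.6 and 28.6 kb against 30.1 and 32.4 kb. At day 120 they were 18.7 and 9.11 kb against 21.4 and 17.1 kb. In unscaled bases the values of the populations overlapped at days 60 and 120 and not at days 40 and 90. With 2 libraries on each side, a lack of overlap says little by itself. The share of loci without overlap at single days was not counted. The scaled difference at day 40 was -0.96 ± 0.16 (limma adjusted p = 0.000788), the 1 of 6 members to pass at that day, against 6.64% of loci. Without scaling it was -1.29 and did not pass (adjusted p = 0.154). On the later days, 60, 90 and 120, it was -0.37, -0.46 and -0.45, with adjusted p of 0.205, 0.146 and 0.0977. The change of the difference from day 40 to day 120 was 0.51 ± 0.23 (limma adjusted p = 0.266), so the day 40 gap was not shown to differ from that at day 120. Over the 6 members, the other 23 differences by day in locus coverage lay between -0.67 and 0.65 and did not pass, against 6.04%, 2.45% and 6.87% of loci that passed at days 60, 90 and 120.

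**Figure D2:**
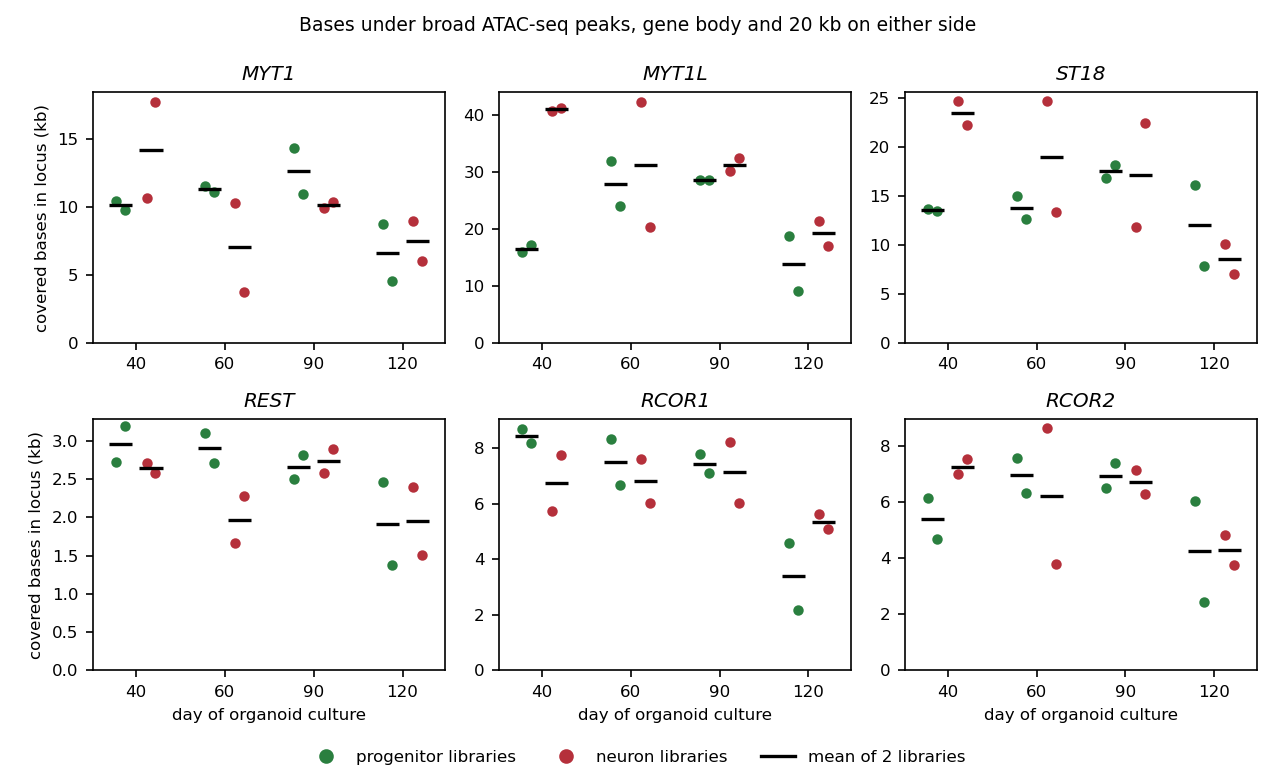
Bases under peaks in each member's locus, in kb and unscaled, by day of organoid culture; each point is 1 library, green for progenitors and red for neurons, and the bar is the mean of the 2 libraries. At day 40 MYT1L lies at 15.9 and 17.1 kb in progenitors and 40.8 and 41.3 kb in neurons, whereas REST stays between 1.37 and 3.19 kb in all 16 libraries.

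The number of peaks in the MYT1L locus was 17 to 42 in progenitors (median 32.5) and 30 to 52 in neurons (median 44). The ranges overlapped, as they did for the peak numbers of the other members (0.347% of loci did not), while the difference after scaling came to -0.41 ± 0.08 on the log2 scale (limma adjusted p = 0.000911). MYT1L was again the 1 of 6 members to pass, against 16.4% of loci. Merging the peaks of all libraries gave 108 regions in the MYT1L locus, with 8 of these open in all 16 libraries and 36 in 1 library. Over all 321056 regions of the genome the shares were 7.72% and 32.7%, and the MYT1L counts lay near them. More neuron than progenitor libraries had a peak in 71 regions, and the reverse held in 26. These counts are not scaled to list length, and the same split was not counted over all regions, so they are a description. No single MYT1L region passed the exact Fisher test of library counts. The 3 furthest apart in favour of neurons, by the same difference in number of libraries, all lay inside the gene. They were chr2:2016391-2017310 and chr2:2127308-2128298 (2 of 8 progenitor and 8 of 8 neuron libraries, adjusted p = 0.0800 each) and chr2:1910236-1911149 (1 and 7, adjusted p = 0.103). The 2 furthest in favour of progenitors were chr2:1907530-1908365 (5 and 0, adjusted p = 0.167) and chr2:2171529-2172586 (6 and 1, adjusted p = 0.223).

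At MYT1L start 1, every library had a peak, and it was longer in neurons. Bases under peaks within 2 kb were 1002 to 1322 in progenitors (median 1268.5) and 1471 to 2364 in neurons (median 2227), with no overlap. After scaling, the log2 difference came to -0.76 ± 0.14 (limma adjusted p = 0.00485). The peak reached 915 to 1097 bases upstream in progenitors and 1107 to 2152 in neurons, while its downstream reach of 21 to 324 and 191 to 363 bases overlapped. Both day 120 neuron libraries had the shortest neuron peaks. Within 1 kb of the start the difference was -0.13 (adjusted p = 0.793), so it came from bases between 1 and 2 kb away.

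Start 2 of MYT1L, inside the gene relative to start 1, had a peak in 0 of 8 progenitor libraries and 7 of 8 neuron libraries, the exception being the second day 60 library. The exact Fisher test gave p = 0.0014, adjusted to 0.0517 over 6360 promoter windows, and so missed the threshold of 0.05, which 0.959% of windows passed; this test was added after the peaks had been seen. Without the 2 shortest lists the adjusted p was 0.0341. Starts 3 and 4, further in, lay under a peak in 7 progenitor and 8 neuron libraries, all but the second day 120 progenitor library. Around starts 2 to 4, the covered bases were 757 to 1098 in those 7 progenitor libraries and 1141 to 2514 in the 8 neuron libraries. In 4 neuron libraries, both of day 40 and both of day 90, a single peak joined the 3 starts.

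**Figure D3:**
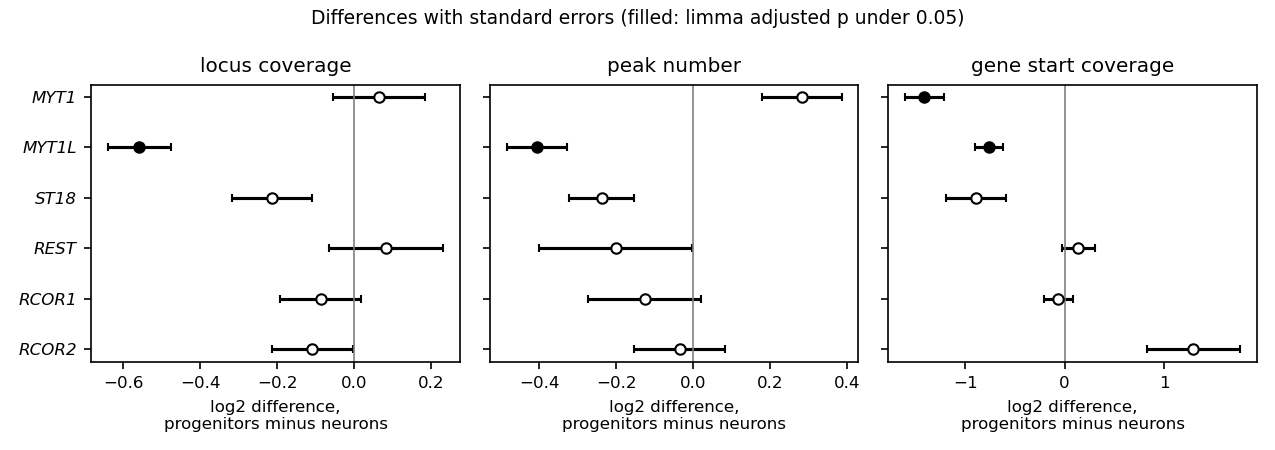
Log2 difference, progenitors minus neurons, for the 6 members in 3 readouts (locus coverage, peak number and coverage within 2 kb of the gene start); bars are standard errors over the 16 libraries and filled points have a limma adjusted p under 0.05. MYT1L is filled in all 3 panels, at -0.56, -0.41 and -0.76, and MYT1 at the gene start, at -1.41. ST18 and RCOR2, without a strand, have both gene ends in place of the start, and the RCOR2 bases there lie outside RCOR2.

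Over its whole locus MYT1 did not differ by these tests. It covered 4.52 to 14.4 kb in progenitors (median 10.7) and 3.77 to 17.7 kb in neurons (median 10.1), and the neuron range enclosed the progenitor range. The scaled difference was 0.06 ± 0.12 (limma adjusted p = 0.757), and the sign turned with other settings, for example to -0.18 with lists of equal length. MYT1 had 7 to 14 peaks in progenitors and 6 to 12 in neurons, a difference of 0.28 ± 0.10 (limma adjusted p = 0.0639). The locus also holds PCMTD2, a neighbouring gene. All 16 libraries had a peak in 4 of the 21 regions of the MYT1 locus, against 7.72% of all regions. One region inside the gene, chr20:64236680-64237836, had a peak in 3 progenitor and 8 neuron libraries (adjusted p = 0.167). Another, chr20:64222327-64225251, was present in all 8 progenitor and both day 40 neuron libraries and in no later neuron library (adjusted p = 0.0800). It merges peaks that do not lie on each other, and the difference in share of libraries was 0 when a peak had to cover 50% of the region.

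ST18 (gene ID 9705, chr8:52110838-52409879) covered 7.90 to 18.2 kb in progenitors (median 14.4) and 7.07 to 24.7 kb in neurons (median 17.8). The neuron libraries spread far more widely than the progenitor libraries and enclosed them. The scaled difference over the days was -0.21 ± 0.10 (limma adjusted p = 0.151). Day 40 neurons covered 24.7 and 22.2 kb, day 60 neurons 24.7 and 13.3 kb, day 90 neurons 11.9 and 22.4 kb and day 120 neurons 10.1 and 7.07 kb. Day 40 progenitors covered 13.7 and 13.5 kb, day 60 progenitors 15.0 and 12.7 kb, day 90 progenitors 16.8 and 18.2 kb and day 120 progenitors 16.1 and 7.90 kb. By the mean of these unscaled values, neurons were thus highest at day 40 and lowest at day 120, and progenitors showed no such order. After scaling, the neuron mean was highest at day 60 (-11.82, against -12.04 at day 40) and lowest at day 120 (-12.69). The scaled progenitor mean was highest at day 120 (-12.21). In neurons, late (days 90 and 120) minus early (days 40 and 60) was -0.52 ± 0.15 (limma adjusted p = 0.0338), the 1 of 6 members to pass, against 5.67% of loci. This call was lost in many alternatives and the value turned to 0.14 with lists of equal length; leaving out any one of 5 neuron libraries also ended it, with the lowest value, -0.30, without the first day 90 library.

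ST18 held 13 to 25 peaks in progenitors and 16 to 31 in neurons (-0.24 ± 0.08, limma adjusted p = 0.0578). At day 60, 20 and 21 peaks in progenitors faced 31 and 22 in neurons, a scaled difference of -0.64 ± 0.17 (limma adjusted p = 0.0367). ST18 was the 1 of 6 members to pass at that day, against 3.83% of loci, and the call was lost without any one of the day 60 libraries or either day 90 progenitor library. Without scaling it was -0.34 (adjusted p = 0.513). Its ends carry no strand in the annotation used, so both were taken as candidate starts. Bases within 2 kb of them were 0 to 938 in progenitors (median 540.5) and 477 to 1661 in neurons (median 669), a difference of -0.89 (limma adjusted p = 0.0972). The call appeared when lists were trimmed to 1 length (-1.60, adjusted p = 0.0303), at a -log10 q of at least 5 (-1.95, adjusted p = 0.00313) and without the second day 40 progenitor library (-1.14, adjusted p = 0.0230).

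Of the 55 regions of the ST18 locus, 1 was open in all 16 libraries, against 7.72% of all regions. It lay at chr8:52254215-52255326, near the middle of the gene. That peak was 856 to 954 bases long in progenitors and 810 to 992 in neurons, and it was the strongest of the locus, by the authors' fold enrichment, in 12 libraries. The 1 member region that passed the exact Fisher test lay in ST18 too: chr8:52162411-52164547 had a peak in 0 of 8 progenitor libraries and 7 of 8 neuron libraries (1 of 2 at day 40 and both at each later day), with an adjusted p of 0.0323. This was 1 of the 133 member regions tested, of 234 in all, and 4.33% of the 182575 regions tested passed, 1.27% in the direction of neurons. The call was lost when a peak had to cover 50% of the region (adjusted p = 0.675), at a -log10 q of at least 2 (adjusted p = 0.271) and without the 2 shortest lists (adjusted p = 0.0670).

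Other ST18 regions differed by day in neurons; they were picked after their values were seen and are given as a description. Peaks at chr8:52197139-52198662 and chr8:52221823-52222724 were in all 8 progenitor libraries and both day 40 neuron libraries and in none of the 6 later neuron libraries (adjusted p = 0.0800 each for progenitors against neurons). A peak at chr8:52214169-52216559, between them, was in 7 progenitor and both day 40 neuron libraries and in no later one (adjusted p = 0.223). In the reverse direction, chr8:52145535-52146217, chr8:52212572-52213140 and chr8:52251619-52251974 had peaks in both day 90 and both day 120 neuron libraries and in no other library (adjusted p = 0.297 each). Over all 321056 regions of the genome, 0.280% had the first pattern in full and 0.646% the last, against 3 of the 234 member regions (1.28%) in each case, the 3 of the first being these 2 and the merged MYT1 region. A further pattern, peaks only in both neuron libraries of days 60, 90 and 120, was in 0 of the 234 member regions and 0.209% of all regions. Beyond the higher-coordinate end of the gene, chr8:52413219-52414398 had a peak in 2 progenitor libraries, both of day 90, and in 7 neuron libraries (adjusted p = 0.223).

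**Figure D4:**
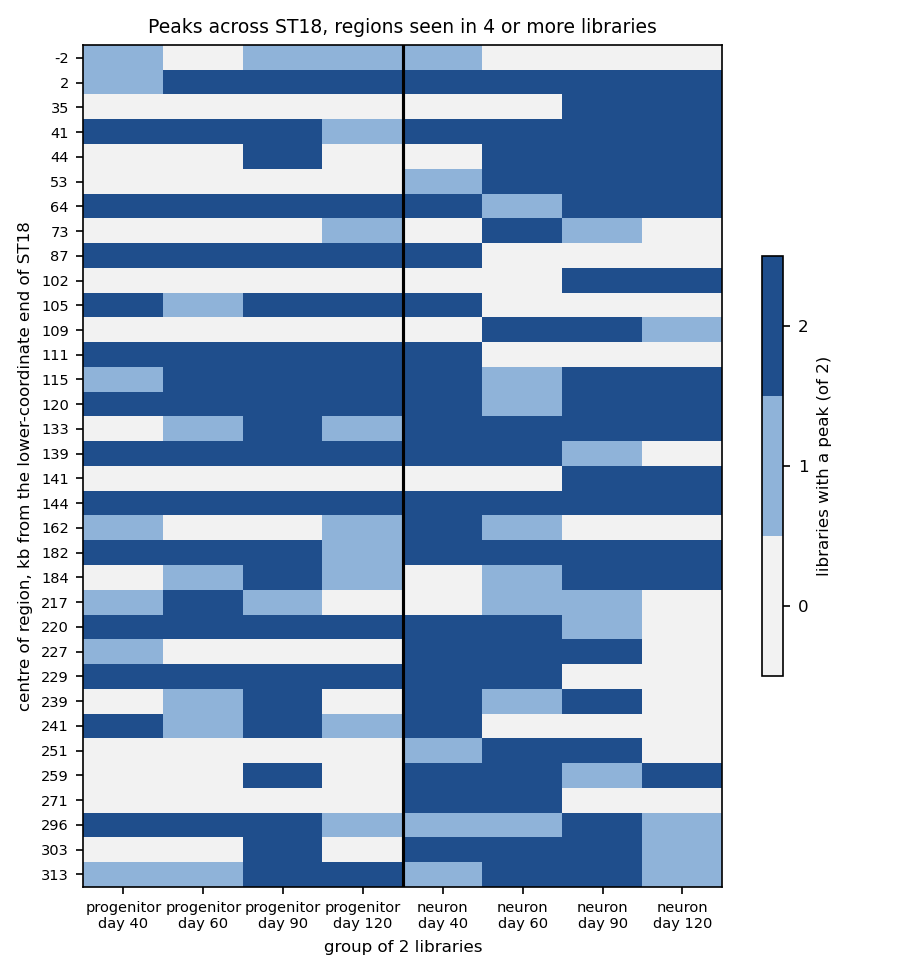
Number of libraries with a peak (0, 1 or 2 of 2) in each group, for the 34 ST18 regions seen in 4 or more libraries; the vertical axis gives each region's centre in kb from the gene's lower-coordinate end and the black line parts progenitors from neurons. The region at 144 kb is filled in every group, whereas those at 87 and 111 kb are filled in progenitors and day 40 neurons and empty in later neurons.

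REST (gene ID 5978, chr4:56907900-56935844, plus strand), the repressor itself, had a short open stretch at its start in every library and little else. It covered 1.37 to 3.19 kb in progenitors (median 2.71) and 1.51 to 2.89 kb in neurons (median 2.49), and the ranges overlapped almost fully. The scaled difference was 0.08 ± 0.15 (limma adjusted p = 0.750). The locus held 1 to 3 peaks in each library, with a difference of -0.20 (limma adjusted p = 0.560). Its 8 regions held 1 that was present in all 16 libraries, at the start (chr4:56906800-56909909), and 6 seen in a single library. Over all regions these shares were 7.72% and 32.7%. The start peak was 954 to 3110 bases wide in progenitors (median 2523) and 765 to 2584 in neurons (median 2330). Bases within 2 kb of the start differed by 0.14 (limma adjusted p = 0.736), so accessibility at REST was not shown to differ between progenitors and neurons in these files. REST start 2 lay under a peak in 7 progenitor and 6 neuron libraries (exact Fisher adjusted p = 1).

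RCOR1 (gene ID 23186, chr14:102592649-102730561, plus strand), the CoREST scaffold, did not differ between the populations over all days but had fewer peaks in late than in early progenitors. The progenitor libraries of day 40 held 12 and 8 peaks, those of day 60 held 10 and 13, those of day 90 had 7 and 6, and those of day 120 had 2 and 2. The neuron libraries of day 40 held 4 and 7 peaks, those of day 60 held 12 and 7, those of day 90 had 10 and 6, and those of day 120 had 7 and 6. In these unscaled counts, every progenitor library of days 90 and 120 lay below every one of days 40 and 60, with no such order in neurons. The share of all loci with such an order was not counted. In progenitors the late minus early difference in scaled peak number was -1.18 ± 0.21 (limma adjusted p = 0.00716), the 1 of 6 members to pass, against 1.50% of loci. In neurons it was 0.14 ± 0.21 (adjusted p = 0.830), where 0 of 6 members passed against 3.70% of loci. The difference between the 2 changes was -1.31 ± 0.29 (adjusted p = 0.0668), in a test that 0.0107% of loci passed. Day 90 alone gave 0 of 6 members in peak number, against 1.07% of loci. Without the first day 40 progenitor library the progenitor change was -1.01 (adjusted p = 0.0560).

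The gap between the populations at RCOR1 turned its sign between days. At day 40 progenitors had more peaks (1.09 ± 0.29 on the log2 scale, limma adjusted p = 0.0361), and at day 120 fewer (-1.20 ± 0.29, adjusted p = 0.0207). In each case RCOR1 was the 1 of 6 members to pass, against 4.41% and 4.54% of loci. The day 40 call was lost without either progenitor library or the first neuron library of that day (down to 0.63), without scaling (0.77, adjusted p = 0.269) and at a -log10 q of at least 2 (0.48, adjusted p = 0.362). The day 120 call was lost without the first progenitor or either neuron library of that day (-0.85 at the smallest) and without scaling (-1.32, adjusted p = 0.0764). The change of the gap from day 40 to day 120, tested after these values were seen, was -2.28 ± 0.42 (limma adjusted p = 0.0155), and 0.853% of loci passed that test. It was -1.83 (adjusted p = 0.0505) without the first day 40 neuron library and -1.96 (adjusted p = 0.0903) without the first day 40 progenitor library, and -2.09 (adjusted p = 0.119) without scaling.

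RCOR1 covered bases moved the same way. The day 40 progenitors covered 8.70 and 8.19 kb, and the day 120 progenitors 4.58 and 2.18 kb. The day 40 neurons covered 5.73 and 7.76 kb, and the day 120 neurons 5.61 and 5.08 kb. In these unscaled bases, the day 120 progenitor values were the lowest of all 16 libraries. After scaling, the second day 120 progenitor library (-13.75) lay above the first day 40 neuron library (-14.03). The scaled change of the gap was -1.23 ± 0.30 (limma adjusted p = 0.0296), against 1.97% of loci that passed, and 6 of the 16 fits that left out 1 library lost the call (values -0.98 to -1.48). It was also lost in 7 other settings, with values from -0.87 to -1.63: without scaling (adjusted p = 0.603), with lists of equal length (0.636), at a -log10 q of at least 2 (0.181) or 5 (0.635), with 50 kb flanks (0.0641), with a pseudocount of 2000 bases (0.0878) and when centred on the median gene (0.0523). Late minus early in progenitors was -0.53 ± 0.15 in covered bases (adjusted p = 0.0511), where 0 of 6 members passed against 2.91% of loci. With lists of equal length this value turned to 0.29 (limma adjusted p = 0.864). The difference of late minus early between the populations gave 0 of 6 members in covered bases, against 0.629% of loci. The first day 120 progenitor library covered 85.2 Mb in all and the second 36.9 Mb, the least of the 16, and each held 2 RCOR1 peaks. Peak number was not fitted with lists of equal length, so the part of list length in the peak counts was not tested.

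**Figure D5:**
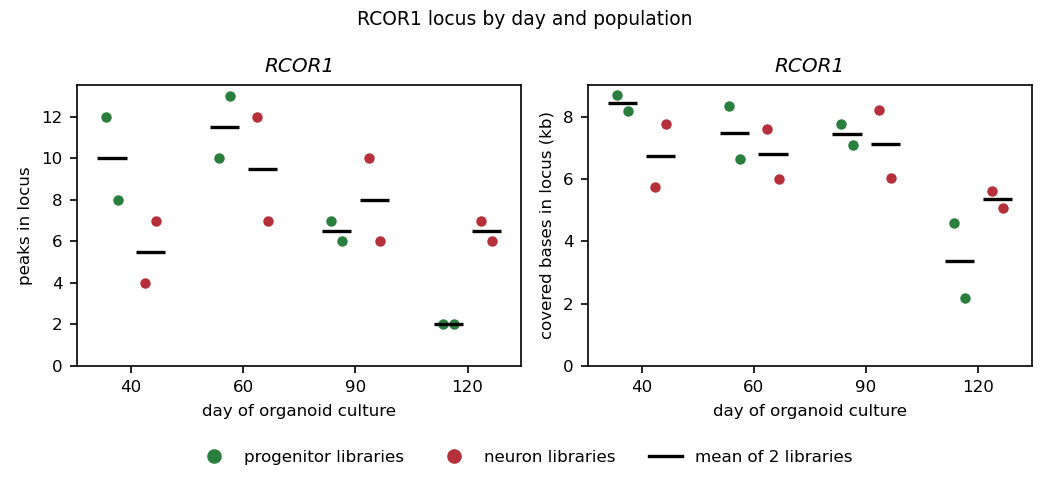
Peaks (left) and bases under peaks in kb (right) in the RCOR1 locus by day of organoid culture; each point is 1 library, green for progenitors and red for neurons, and the bar is the mean of the 2. Progenitors fall from 12 and 8 peaks at day 40 to 2 and 2 at day 120, while neurons hold 4 to 12 throughout.

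Open chromatin at RCOR1 was shared by all libraries at 2 sites. Of its 31 regions, the start (chr14:102590931-102594824) and a site inside the gene (chr14:102693172-102695481) had a peak in all 16 libraries, and the day 120 progenitors had only these. Over all regions, 7.72% had a peak in all 16 libraries. The start held 1688 to 3404 bases in progenitors and 2458 to 3507 in neurons, and its bases within 2 kb differed by -0.06 (limma adjusted p = 0.877). Over the days, the locus covered 2.18 to 8.70 kb in progenitors (median 7.44) and 5.08 to 8.22 kb in neurons (median 6.02), a scaled difference of -0.09 ± 0.11 (adjusted p = 0.612). Regions 6894 bases upstream of the start (chr14:102585376-102585755) and inside the gene (chr14:102668222-102668588) had peaks in 4 progenitor libraries and in no neuron library. The region chr14:102722980-102724199 had them in 4 neuron libraries and in no progenitor library (adjusted p = 0.297 for each of the 3).

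RCOR2 (gene ID 283248, chr11:63911230-63927762), the relative of RCOR1 found in stem and neural cells, covered 2.44 to 7.56 kb in progenitors (median 6.23) and 3.76 to 8.63 kb in neurons (median 6.63). The ranges overlapped, and the scaled difference was -0.11 ± 0.11 (limma adjusted p = 0.516). Its sign depended on the window, since it was 0.17 over the gene body alone and 0.18 with 5 kb flanks. With lists of equal length it was -0.89 and passed (adjusted p = 0.000702). The window also holds MARK2 and NAA40. Of its 11 regions, 2 had a peak in all 16 libraries, against 7.72% of all regions. Only 1 of the 2, at chr11:63916166-63920448, lies inside RCOR2. That region held 1352 to 3999 bases in progenitors and 1428 to 3935 in neurons. RCOR2 had 3 to 8 peaks in progenitors and 4 to 9 in neurons (-0.04, adjusted p = 0.897). At the 2 gene ends, summed since no strand is given, the bases were 0 to 779 in progenitors (median 519) and 0 to 792 in neurons (median 0), a difference of 1.29 (adjusted p = 0.126). All of these bases lay in 1 region, chr11:63909639-63910512, which is outside RCOR2, 718 bases from its lower-coordinate end, and overlaps MARK2. It had a peak in 7 progenitor and 3 neuron libraries (exact Fisher adjusted p = 0.414), so the difference is not one of a peak inside RCOR2.

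Among the 6 members, scaled coverage moved together most for MYT1L with RCOR2 (Pearson r = 0.58 over the 16 libraries) and MYT1L with ST18 (r = 0.50); libraries of a group and the scaling are shared, and these are descriptions. The loci most like MYT1L were C4orf50 (r = 0.89), ATP8A2 (0.89) and MST1R (0.88), and those most like ST18 were TEX26 (0.87), PRICKLE2 (0.82) and GUF1 (0.81). For MYT1 they were ITPRIPL2 (0.82), PADI1 (0.81) and WFIKKN2 (0.81). For REST they were CHEK1 (0.88), TEX54 (0.86) and HMGN5 (0.86), for RCOR1 HADHA (0.92), GATAD2A (0.89) and DMRTA2 (0.88), and for RCOR2 KLHL23 (0.87), PPP1R37 (0.84) and PML (0.78). Each was the highest among all tested loci, so a high r is fixed by the choice.

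Of 18 REST cofactors, 1 was higher in progenitors and 1 in neurons in locus coverage, against 21.0% of all loci in either direction, with a list median of -0.06 beside -0.05 over all loci. CDYL, which bridges REST to histone methyltransferases, covered 6.64 ± 2.65 kb in progenitors and 4.54 ± 1.49 kb in neurons (SD, n = 8 each; 0.40 ± 0.10 scaled, limma adjusted p = 0.00568). SMARCA4, the BRG1 remodeller, covered 4.49 ± 1.49 and 5.57 ± 0.78 kb (-0.39 ± 0.13, limma adjusted p = 0.0333), and kept its call in 14 of 30 alternative settings. KDM1A, HDAC1 and HDAC2, the enzymes of the CoREST complex, had differences of -0.21, -0.07 and -0.11, and none of the 3 passed. At gene starts 0 of 18 cofactors passed, against 6.53% of gene starts.

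Of 22 genes known for RE1 elements, 8 were higher in neurons and 0 in progenitors, against 21.0% of all loci (2089 higher in neurons and 1856 in progenitors). The list median was -0.24, beside -0.05 over all loci. GRIA2, an AMPA receptor subunit, covered 3.65 ± 1.92 kb in progenitors and 8.42 ± 3.01 kb in neurons (SD, n = 8 each; -1.18 ± 0.13, limma adjusted p = 6.85e-07). UNC13A, a synaptic vesicle priming factor, SYT4, a synaptotagmin, and CHGA, a granin of secretory vesicles, differed by -0.94, -0.62 and -0.60. At gene starts 5 of the 22 were higher in neurons and 0 in progenitors, against 6.53% of gene starts.

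Of 6 genes reported as repressed by MYT1 family proteins, 3 were higher in progenitors and 0 in neurons, against 21.0% of all loci (1856 higher in progenitors). The list median was 0.52, beside -0.05 over all loci. SOX2, HES1 and HES5 are also among the progenitor markers above. This list, like those of the RE1 genes and the cofactors, was chosen with earlier results of these data known, so the counts are a description. YAP1, the Hippo pathway coactivator, covered 9.75 ± 3.35 kb in progenitors and 3.90 ± 2.31 kb in neurons (SD, n = 8 each; 1.23 ± 0.14, limma adjusted p = 9.66e-07). SOX2, the gene whose reporter defines the progenitor sort, and HES1, a Notch target, differed by 1.12 and 0.83. Over their gene bodies alone SOX2 and HES1 had the opposite sign, -0.77 and -0.54. HES5, ID1 and ID3 differed by 0.11, 0.20 and 0.19 and did not pass. At gene starts 0 of the 6 passed, against 6.53%.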

How the data were processed

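Nuclei were treated with Tn5 for 30 min, per the labels' protocols. The build hg38 and the tools MACS2 2.1.2, BWA 0.7.17, SAMtools 1.9, Trim Galore 0.5.0 and Picard are named per the submitters' processing notes, without settings. The deposited broad peak lists, 1 per library, give the authors' score, fold (ratio), -log10 p and -log10 q per peak. Whether reads were shifted for the Tn5 offset is not given there.

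Bases under peaks and peaks per locus were counted on RefSeq genes (GRCh38.p14), for peaks on the main chromosomes. Loci needed 500 bases in 2 libraries. Values were log2(bases + 500), log2(peaks + 1) or, within 2 kb of the start, log2(bases + 100), minus log2 of the library's total, and understate changes of low values. Contrasts of the 8 group means were fitted over all loci with limma 3.58.1 (R 4.3.3), with Benjamini-Hochberg adjustment and a threshold of 0.05. Regions are merged peaks overlapping by 1 base, those in 2 to 14 libraries tested by Fisher's exact test (SciPy 1.17.1). Scripts were tested on simulated data. Separate cultures are not stated for the paired libraries of any group, so p-values measure the spread between libraries, which may be technical. Members and lists were chosen with earlier results of these data known. Text names the 6 members, up to 4 passing genes per list and direction, the 3 loci most like each member, and regions that pass or differ most.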

Additional observations from a re-analysis of the deposited data

Results flagged for a closer look

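REST covered 1.37 kb in the second day 120 progenitor library, far below the next lowest progenitor library at 2.46 kb. This library also had the shortest peak list, and after scaling to that list's length its REST value was the highest of the 8 progenitor libraries. Across 48 groups of 8 libraries checked for such a gap, 1 was flagged, this one, and chance alone gives about 1 in 20.

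The difference between progenitors and neurons at RCOR1 changed from day 40 to day 120, by -1.23 on the log2 scale in covered bases (limma adjusted p = 0.0296) and by -2.28 in peak number (limma adjusted p = 0.0155). The first call was lost in 7 other settings, for example without scaling (-0.98, adjusted p = 0.603), and the second without scaling (-2.09, adjusted p = 0.119). The contrast was added after the values by day had been seen.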

How the results depend on the processing

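Values are log2 differences, progenitors minus neurons, unless said otherwise, and the cause of each change was not tested. MYT1 locus coverage turned to -0.18 with lists of equal length, -0.034 over the gene body, -0.048 with 50 kb flanks, -0.19 at a -log10 q of at least 5 and -0.069 without the 2 shortest lists (the second day 120 progenitor and second day 60 neuron libraries). REST turned to -0.053 with equal lists and -0.15 at q of at least 5, and its gene start to -0.18 and -0.28. The RCOR1 gene start turned to 0.054 in a 1 kb window and 0.51 with equal lists. RCOR2 was -0.89 with equal lists, where it passed, and turned to 0.17 over the gene body and 0.18 with 5 kb flanks; its peak number turned to 0.072 at q of at least 2. Late minus early turned to 0.14 for ST18 in neurons and 0.29 for RCOR1 in progenitors with equal lists. MYT1L was -0.51 without scaling and did not pass. Over gene bodies alone SOX2 was -0.77, HES1 -0.54, DLX1 -0.015, DLX2 -0.12 and TWIST1 -0.069. The region test at chr20:64222327-64225251 gave a share difference of 0 with 50% overlap.

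The count of members that passed in locus coverage over the days, 1, became 0 without scaling and 2 with equal lists. In late minus early, the progenitor count of 0 became 1 with a pseudocount of 100 bases, over the gene body and without the 2 shortest lists. The neuron count of 1 became 0 without scaling, with equal lists, centred on the median gene, with a pseudocount of 100, over the gene body and at q of at least 2 or 5, and 2 without the shortest lists. The count for the difference of these changes, 0, became 1 over the gene body and 2 without the shortest lists. In peak number, 1 became 0 without scaling and 2 at q of at least 2, and at gene starts 2 became 1 in a 1 kb window. The count by day, 1, became 0 without scaling, 2 with a pseudocount of 2000, 3 with equal lists, over the gene body, with 50 kb flanks or at q of at least 5, and 5 without the shortest lists. The count of member regions, 1, became 0 with 50% overlap, 2 at q of at least 2 (where the ST18 region was lost and others passed) and 0 without the shortest lists.

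Leaving out 1 library at a time gave -0.035 to 0.164 for MYT1 locus coverage, -0.324 to -0.103 for ST18 (which passed without the first day 90 neuron library), -0.039 to 0.204 for REST, -0.018 to 0.290 for the REST gene start, -0.158 to 0.031 for the RCOR1 gene start and -0.103 to 0.032 for RCOR2 peak number. MYT1L locus coverage passed in each of these 16 fits (-0.613 to -0.503). Counts of members that passed were 1 to 2 over the days, 0 to 1 for each late minus early contrast, 1 to 3 in peak number, 2 to 3 at gene starts, 1 to 2 by day, and 1 to 4 for regions.

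The labels do not say whether replicate numbers pair libraries. Deviations of first replicates from their group means had a correlation over 0.1 in 6 of 28 pairs of groups (r = -0.12 to 0.25). No reference was set for these values, so they cannot show whether libraries with the same number share a culture or sort. With the replicate block MYT1L was -0.56 (limma adjusted p = 2.63e-05).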
